A study of Homo sapiens with 24 samples.

Results

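The genes described here are the zinc finger genes of chromosome 19 with numbered symbols, from ZNF554 near one end of the chromosome to the last gene of the long-arm cluster near the other end. They were taken by symbol and position alone: every row of the exon count table whose symbol was ZNF followed by digits and nothing else, and whose first chromosome entry was 19. This gave 241 of the 60308 genes in the exon table, and 240 of them were also among the 37473 genes of the intron table, where ZNF524 had no row. Another 234 genes with symbols of the same form lay on other chromosomes and were used for comparison. A mean of at least 1 CPM (counts scaled to a common library size) over all libraries was required for a test, and 193 of the 241 genes passed it in the exon table and 152 in the intron table.

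Most genes of this family encode a KRAB domain at the start of the protein followed by a row of classical zinc fingers, small folds that hold a zinc ion and read DNA bases. The fingers bring the protein to a DNA sequence, often inside a retrotransposon, and the KRAB domain recruits TRIM28 (also called KAP1), which in turn brings SETDB1, HP1 proteins and histone deacetylases that silence the site. The genes arose by repeated local duplication and stand in clusters on chromosome 19, so that neighbours resemble each other in sequence, and members are found among the repressors of LINE-1, SVA and endogenous retrovirus elements.

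RNA was sequenced from U2OS cells, a human osteosarcoma line, after 4 treatments, and each lysate was divided into a soluble and an insoluble cytoplasmic fraction. Ctrl cells received the solvent dimethyl sulfoxide at 0.12% for 2 h, and NaAsO2 cells received 500 µM sodium arsenite for 60 min. RK-33 cells received the DDX3 inhibitor RK-33 at 6 µM, described as a pre-treatment of 1 h. Combo cells received RK-33 at 6 µM from 1 h before NaAsO2, which was given at 500 µM for 60 min. The methods match the 2 h of solvent to the timing of RK-33, and do not state whether RK-33 was removed before arsenite. Arsenite causes oxidative stress and the assembly of stress granules, and RK-33 blocks the ATPase of DDX3, an RNA helicase found in those granules. The insoluble fraction was the pellet of a lysate already cleared of nuclei and was enriched for ribonucleoprotein granules, while the soluble fraction was the supernatant, so the pellet is a mixture and not purified granules. There were 3 libraries in each of the 8 groups, 24 in all, from an experiment that the methods describe as carried out 3 times on a single cell line. Spike-in RNA was added to the libraries but was not used here. The values are shares of the gene counts of a library, so a higher level in a fraction cannot be told apart from a lower amount of the other RNA in it.

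The family is tied together by sequence, and the conserved linker that joins 1 finger to the next shows how closely. Among the 241 genes, 240 had a coding sequence that could be read, 204 of these held the KRAB pattern near the start of the protein, and the number of fingers found ran from 1 to 39 with a median of 12. Within single coding exons, 1394 linkers were found in 207 genes, and the same 15 bases, ACTGGAGAGAAACCC, coded for 322 of them, or 23.1%, in 95 genes. The stretches below are 24 bases long, read 5′ to 3′ on the coding strand from GRCh38, and are shown because they belong to genes that the results below turn on. Capitals mark the 5 linker codons, and lower case marks the codons on either side, at chr19:9295808-9295831 (minus strand), chr19:9528530-9528553 (minus), chr19:57212526-57212549 (plus), chr19:57254248-57254271 (plus), chr19:57291781-57291804 (plus), chr19:23362010-23362033 (minus) and chr19:8811947-8811970 (minus), in the order of the lines.
ZNF699: cacACTGGAGAGAAACCCtatgaa
ZNF426: cacACTGGAGAGAAACCCtatgaa
ZNF264: cacACTGGAGAGAAGCCCtatgag
ZNF805: cacACTGGAGAGAAGCCCtatgag
ZNF460: cacACTGGAGAGAAGCCCtatgag
ZNF91: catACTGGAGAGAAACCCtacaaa
ZNF558: catACTGGAGAAAAACCCtatgac

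The ZNF699 and ZNF426 stretches were identical and occurred in 26 genes other than the one named in each line, and that of ZNF91 occurred in 34 others. The stretch of ZNF264, ZNF805 and ZNF460, which are neighbours, had 3 other carriers for each gene, and that of ZNF558 was found in no other member. In all, 876 of the 1394 linkers lay in a 24-base stretch that another gene of the set also carried, in 181 genes. Reads that matched more than 1 place were not counted by the authors, so a lower count can reflect more such reads as well as less RNA. A read longer than a shared stretch can still be placed by the bases around it. How many reads of these genes were lost in this way was not measured.

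Exon and intron counts together came to between 10968059 and 19799530 per library, and the 241 genes held between 22055 and 51383 exon counts in each. Of all exon counts, RN7SL1, the RNA of the signal recognition particle, took 7.51% to 15.5% per soluble library and 0.426% to 5.79% per insoluble library. The upper value was that of NaAsO2 insoluble replicate 3, which stood apart from the other insoluble libraries, all at or below 1.23%, and which had the smallest normalisation factor of the 24 (0.817). The counts, medians and gene values that it moved most are given below with and without it. Of the U2OS mesenchymal markers VIM, SPARC, RUNX2, COL1A1 and COL1A2, the 4 other than COL1A2 were above 1 CPM, while COL1A2 had a median of 0.159 CPM, and the red cell marker HBB had a median of 0 CPM. The summed level of 6 markers of other cell types was 226 to 410 CPM in soluble and 146 to 352 CPM in insoluble libraries, most of it KRT8. The summed level of 5 nuclear RNAs (MALAT1, NEAT1, KCNQ1OT1, TUG1 and MEG3, of which MEG3 had a median of 0 CPM) was 6426 to 15789 CPM in soluble and 2473 to 8974 CPM in insoluble libraries.

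Expression of the family in U2OS was mostly low. The exon level of the 193 tested genes ran from 1.01 to 134 CPM, with a median of 9.43 CPM, so that 106 genes lay below 10 CPM and 8 at 50 CPM or more. Of the 48 genes below the limit, 34 lay on the short arm, 24 of them in the cluster at 19.7 to 24.1 Mb. In 5 of these (ZNF90, ZNF486, ZNF626, ZNF257 and ZNF728) there was no exon count in any library. With exon length taken into account, ZNF460 was the most abundant member at 33.5 CPM per kilobase of exon, followed by ZNF146 at 23.3, ZNF121 at 18.4, ZNF428 at 12.3 and ZNF574 at 12.1, all as means over 24 libraries. ZNF358 (11.6), ZNF317 (11.4), ZNF45 (9.97), ZNF865 (9.79) and ZNF787 (9.39 CPM per kilobase) completed the highest 10, and 7 of the 10 had no KRAB pattern.

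Members with known roles spanned the whole range of levels. ZNF146, a protein of fingers with no KRAB domain, stood 2nd of the 241 per kilobase, and ZNF473, which takes part in the 3′ end processing of histone mRNA, stood 13th with 7.13 CPM per kilobase. ZNF808, a repressor of MER11 retroviral elements, reached 4.94, and ZNF274, which recruits SETDB1 to the 3′ ends of other zinc finger genes, reached 3.49 CPM per kilobase. The imprinted gene ZNF331 had 3.15, the HERV-K repressors ZNF417 and ZNF587 had 2.76 and 2.57, and ZNF649, a LINE-1 repressor, had 2.15 CPM per kilobase. ZNF91, the repressor of SVA elements, was lower at 1.84, ahead of ZNF224 at 1.5 and ZNF536, a regulator of neuronal differentiation, at 0.481. ZNF93, another LINE-1 repressor, had a mean of 0.756 CPM and was the only 1 of these 12 genes that could not be tested.

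Together the family took a larger share of exon counts in the insoluble fraction after each drug treatment than in Ctrl. The summed exon level of the 241 genes was 2618 ± 43.4 CPM (SD, n = 3) in Ctrl soluble and 2488 ± 94.8 CPM in Ctrl insoluble libraries. In the insoluble fraction it was 3586 ± 79.3 CPM with NaAsO2, 3306 ± 90.3 CPM with RK-33 and 3515 ± 191 CPM with Combo. The soluble means were 2618 ± 69.5, 2814 ± 147 and 2728 ± 61.0 CPM in the same order. After scaling by trimmed mean of M-values (TMM), each of the 9 treated insoluble libraries, 3203 to 3695 CPM, was above each of the other 15, which ran from 2387 to 2952 CPM. With library size alone NaAsO2 insoluble replicate 3 was at 2860 CPM and Combo insoluble replicate 3 at 3131 CPM, both below RK-33 soluble replicate 1 at 3184 CPM. The plot of summed levels shows the libraries.

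**Figure D1:**
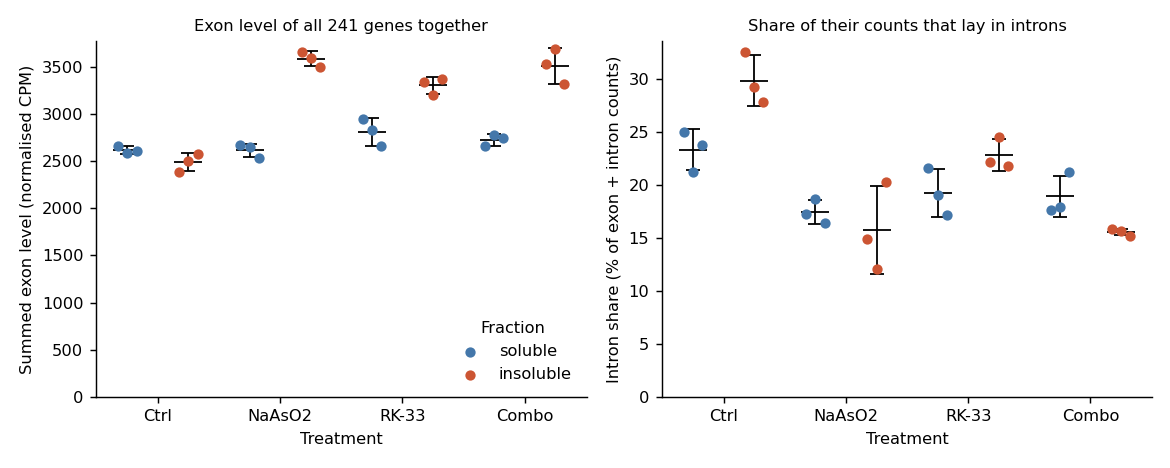
Left, summed exon level of the 241 genes (TMM-normalised CPM) by treatment and fraction, and right, the share of their exon plus intron counts that lay in introns (%). Each point is a library, and bars give the mean ± SD of 3 libraries. On the left the treated insoluble libraries lie at 3203 CPM or more, above the rest, and on the right Ctrl insoluble libraries hold the largest intron share.

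In Ctrl cells few members were called between the fractions, a smaller share than of all genes. A member is called higher or lower where edgeR's quasi-likelihood test over all genes gave a Benjamini-Hochberg adjusted p under 0.05 and the log2 fold change was at least 1 in size. Of 193 genes, 2 were called higher in the insoluble fraction and 3 lower, against 11.8% and 10.7% of all 17666 genes tested. The median log2 fold change was −0.10 with quartiles of −0.32 and 0.19, and over all genes it was −0.03 with quartiles of −0.56 and 0.55. At the adjusted p alone 14 were higher and 26 lower, against 24.4% and 26.6% of all genes. ZNF91 was higher in the insoluble fraction, with 10.5, 11 and 6.85 CPM in soluble and 21.2, 22 and 27.2 CPM in insoluble libraries. Every insoluble value was above every soluble one (log2 fold change 1.30, SE 0.28, edgeR adjusted p = 0.000602). ZNF154, at the edge of detection, also rose from 0.466, 0.920 and 0.856 CPM to 2.49, 2.62 and 1.93 CPM (1.64, SE 0.46, adjusted p = 0.00489).

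The members lower in the insoluble fraction of Ctrl cells were ZNF580, ZNF284 and ZNF358. ZNF580, a short protein with 3 fingers and no KRAB pattern, had 16.9, 17.1 and 14.1 CPM in soluble and 5.41, 6.75 and 7.53 CPM in insoluble libraries. It was called lower in the insoluble fraction under all 4 treatments, with log2 fold changes of −1.29 in Ctrl, −1.58 with NaAsO2, −1.73 with RK-33 and −1.26 with Combo, and its exons overlap those of CCDC106 and ZNF581 over 15.6% of their length. ZNF91 was the only member called higher in the insoluble fraction under all 4 treatments, at 1.30, 1.01, 1.38 and 1.01 in the same order. ZNF121, the 3rd most abundant member, was at 167, 153 and 167 CPM in Ctrl soluble and 86.9, 79.9 and 91.9 CPM in Ctrl insoluble libraries, with no overlap, and its log2 fold change of −0.91 (SE 0.12, adjusted p = 1.58e-06) fell short of the fold limit.

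With NaAsO2 few members were called lower in the insoluble fraction. Of the 193 genes, 31 were called higher in the insoluble than in the soluble fraction and 3 lower. The shares of all genes were 14.6% and 16%. The members' share of higher calls was thus near that of all genes, and their share of lower calls was smaller. The median log2 fold change was 0.29 over the members and 0.03 over all genes, and 127 of the 193 values in this comparison were above 0. ZNF699, related to the fly gene hangover, had 20.3, 19.6 and 16.3 CPM in soluble and 67.0, 64.0 and 62.3 CPM in insoluble libraries. The fractions lay far apart (log2 fold change 1.78, SE 0.13, adjusted p = 1.25e-10), whereas in Ctrl the soluble values of 23.7, 24.8 and 21.7 CPM met the insoluble values of 23.7, 25.4 and 31.2 CPM (0.19, SE 0.13, adjusted p = 0.221).

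The genes with the smallest adjusted p in this comparison lay at a pair of places on the chromosome. ZNF558 lies in the same short-arm cluster as ZNF699 (chr19:8806170-8832314, minus strand), and its levels were 12.3, 14.1 and 12.9 CPM in soluble and 43.1, 46.7 and 43.0 CPM in insoluble libraries (1.76, SE 0.14, adjusted p = 2.94e-10). ZNF264, ZNF805 and ZNF460 follow each other on the plus strand of the long arm, from chr19:57191500 to chr19:57294069. ZNF264 had 35.7, 39.8 and 34.3 CPM against 89.4, 94.3 and 123 CPM (1.48, SE 0.11, adjusted p = 2.31e-10). ZNF805 had 29.9, 29 and 24.2 CPM against 68.2, 67.7 and 90.2 CPM (1.44, SE 0.11, adjusted p = 3.11e-10). ZNF460, the most abundant member per kilobase, had 69.9, 66.4 and 60.9 CPM against 191, 193 and 186 CPM (1.53, SE 0.12, adjusted p = 2.57e-10). In all of these genes every insoluble value was above every soluble one, and for ZNF460 the soluble values were also below those of Ctrl, 102, 97.4 and 109 CPM (−0.64, SE 0.12, adjusted p = 0.000938, below the fold limit).

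**Figure D2:**
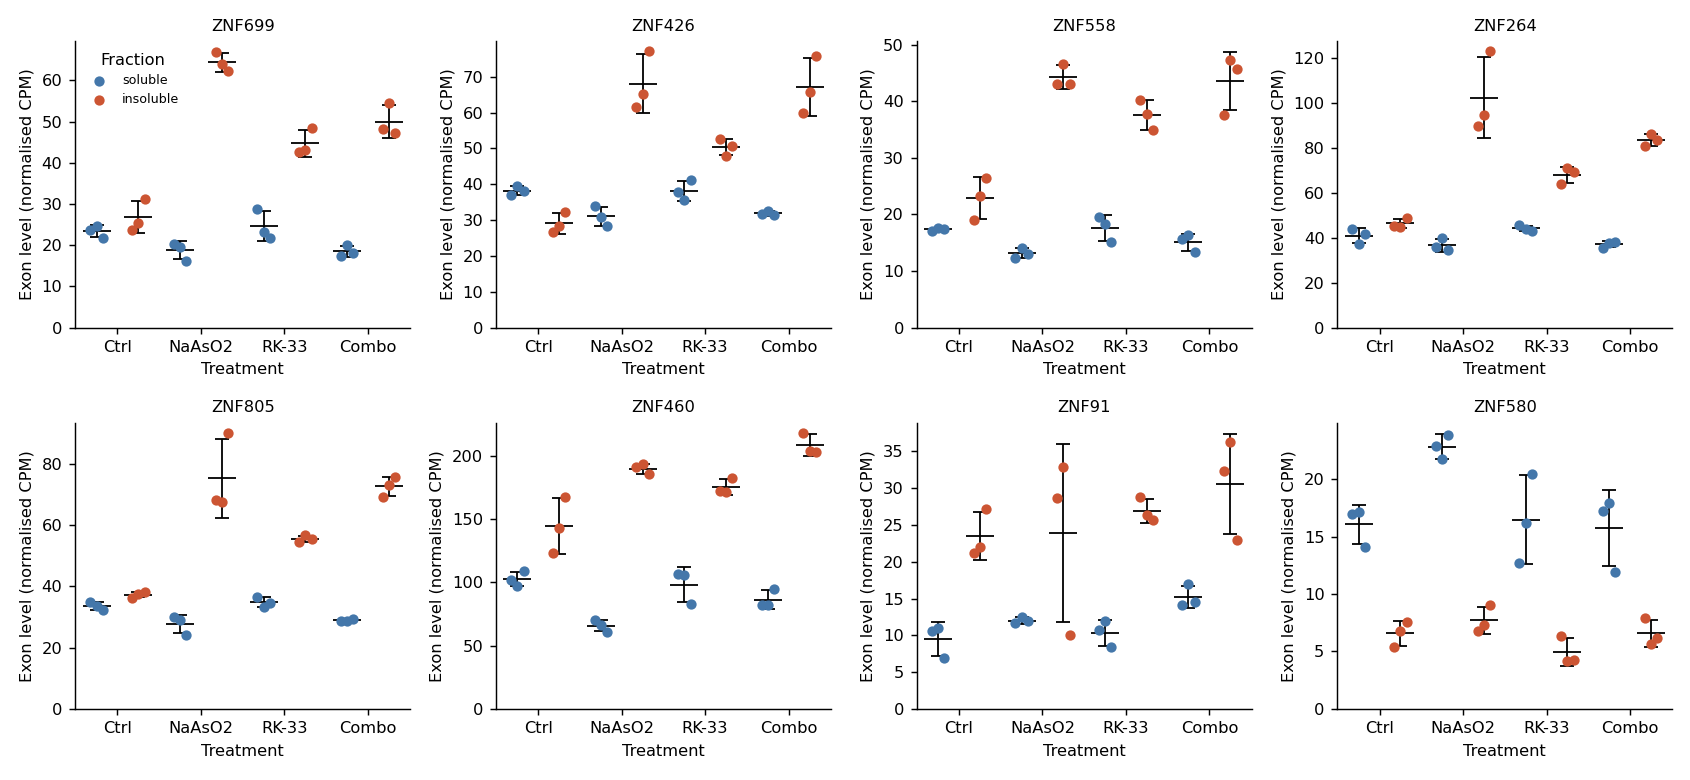
Exon level (TMM-normalised CPM) of 8 members by treatment, soluble libraries in blue and insoluble in red, with mean ± SD of 3 libraries. In ZNF699, ZNF426, ZNF558, ZNF264 and ZNF805 the insoluble points rise above the soluble ones after each drug treatment, ZNF460 and ZNF91 are higher in the insoluble fraction in Ctrl as well, and ZNF580 is lower there throughout.

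ZNF580, ZNF383 and ZNF569 were the members called lower in the insoluble fraction with NaAsO2. ZNF383 had 6.21, 6.88 and 7.80 CPM in soluble and 3.13, 3.09 and 3.2 CPM in insoluble libraries (−1.15, SE 0.20, adjusted p = 4.05e-05). ZNF569 had 16.1, 12.8 and 16.7 CPM and 9.68, 7.23 and 4.15 CPM (−1.08, SE 0.22, adjusted p = 0.000178). Both are KRAB genes of the long-arm cluster at 36.2 to 37.8 Mb, and both lost the call when the trend of each library with exon GC content was removed.

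Measured within the insoluble fraction, NaAsO2 against Ctrl, 27 members were called higher and none lower, where 5.61% of all genes were higher and 8.37% lower. The median log2 fold change was 0.43, against −0.02 over all genes, and at the adjusted p alone 84 members were higher and 4 lower (all genes 21.2% and 21.8%). ZNF426 had 26.6, 28.3 and 32.3 CPM in Ctrl and 61.6, 65.3 and 77.3 CPM in NaAsO2 insoluble libraries, with no overlap (1.22, SE 0.12, adjusted p = 9.7e-08). ZNF699 (1.27, SE 0.13, adjusted p = 2.26e-07) and ZNF264 (1.14, SE 0.11, adjusted p = 1.42e-07) moved by a similar amount. ZNF850, with 30 fingers, went from 34.4, 39.9 and 40.4 CPM to 78.1, 70.3 and 93.6 CPM (1.07, SE 0.12, adjusted p = 5.86e-07). The number called was 16 when only the groups compared were fitted and 42 when the GC trend was removed. Here and below, counts of members under other settings stand without shares of all genes. Such changes in count cannot be read as particular to the members.

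The test of the shift itself, whether the ratio of insoluble to soluble differed between NaAsO2 and Ctrl, called 18 members higher and none lower, against 4.57% and 4.99% of all genes, with a median of 0.42 (all genes −0.02). The smallest adjusted p belonged to ZNF426, at 37.0, 39.6 and 38.2 CPM in Ctrl soluble and 33.9, 30.8 and 28.4 CPM in NaAsO2 soluble libraries. Its ratio was thus below 1 in Ctrl and above 1 with NaAsO2 (shift 1.53 on the log2 scale, SE 0.17, adjusted p = 2.11e-06). ZNF699 (1.59, SE 0.18, adjusted p = 4.42e-06), ZNF805 (1.29, SE 0.16, adjusted p = 7.53e-06) and ZNF264 (1.30, SE 0.16, adjusted p = 7.56e-06) followed. ZNF460 (1.04, SE 0.16, adjusted p = 0.00011) and ZNF543 (1.03, SE 0.22, adjusted p = 0.00212), named after its values were seen, were also called, so 4 neighbours in a row on the long arm shifted. The count was 32 with the GC trend removed, 28 with library size alone, 36 without NaAsO2 insoluble replicate 1 and 35 without replicate 3.

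These comparisons include NaAsO2 insoluble replicate 3, and some members took a different value there. Leaving that library out gave 37 higher and 5 lower for the fractions under NaAsO2, 33 and 0 for the insoluble fraction against Ctrl, and 35 and 0 for the shift. No shares of all genes stand beside these counts, so the rise cannot be read as particular to the members. ZNF91 was at 28.7, 32.9 and 10.1 CPM in the NaAsO2 insoluble libraries, and its log2 fold change against the soluble fraction was 1.01 with all libraries and 1.40 without replicate 3. ZNF146 was at 141, 139 and 66.8 CPM and not called with all 3 (0.71, SE 0.18, adjusted p = 0.00147), while without replicate 3 the value was 1.02. ZNF497, named after its values were seen, had 11.7, 14.9 and 41.7 CPM and reached 2.63 over its soluble values of 3.16, 3.79 and 3.86 CPM, or 1.91 without replicate 3. ZNF699 (62.3 CPM), ZNF426 (77.3 CPM), ZNF558 (43.0 CPM) and ZNF460 (186 CPM) were above all their soluble values in replicate 3 as well, as the plot of 8 members shows.

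By position, members of both arms were called, and the short arm had the larger median. With NaAsO2, insoluble against soluble, 14 of the 49 tested short-arm genes were called higher and 0 lower with a median of 0.74, and 17 of the 144 long-arm genes were higher and 3 lower with a median of 0.19. Members less than 1 Mb apart formed 16 groups along the chromosome. In the same comparison the median was 0.74 in the 18 tested genes at 11.5 to 12.6 Mb, 0.82 in the 13 at 19.7 to 24.1 Mb and 0.35 in the 56 at 55.5 to 58.5 Mb. It was −0.07 in the 22 genes at 36.2 to 37.8 Mb and −0.33 in the 20 at 43.5 to 45.1 Mb, where 1 gene was called higher. Genes of a cluster share sequence and are not independent of each other, and no test was made between clusters.

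**Figure D3:**
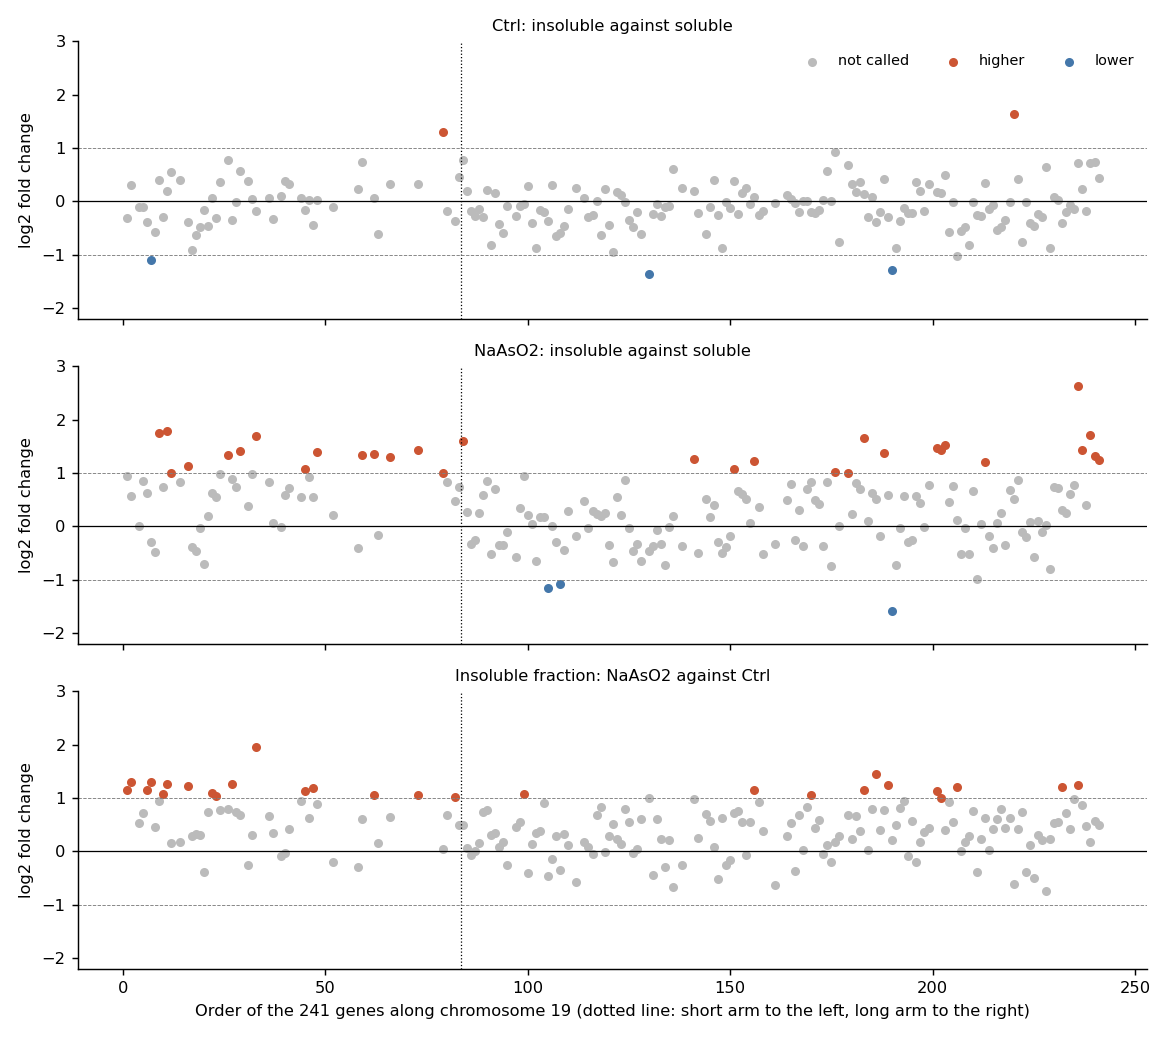
Exon log2 fold change of the tested members in order along chromosome 19 (x axis, rank of position among 241), for insoluble against soluble in Ctrl (top) and NaAsO2 (middle) and for NaAsO2 against Ctrl in the insoluble fraction (bottom). Coloured points are called, dashed lines mark a log2 fold change of 1 in either direction, and the dotted line separates the arms. Ctrl has 2 genes called higher and 3 lower, the middle panel 31 and 3, and the bottom panel 27 and 0.

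RK-33 alone also gave calls toward higher levels in the insoluble fraction. Against Ctrl in the insoluble fraction 7 members were called higher and none lower, where 0.702% of all genes were higher and 1.16% lower, and the median was 0.34 (all genes 0.00). At the adjusted p alone there were 56 higher and 1 lower, against 5.71% and 8.19% of all genes. ZNF627 rose from 5.09, 5.34 and 8.11 CPM to 13.5, 13.4 and 14.4 CPM (1.15, SE 0.18, adjusted p = 0.000157), and ZNF468 from 18.1, 22.2 and 19.1 CPM to 43.5, 36.6 and 40.2 CPM (1.02, SE 0.18, adjusted p = 0.000488). ZNF555 had 1.52, 3.33 and 3.09 CPM in Ctrl and 6.78, 4.85 and 7.33 CPM with RK-33 (1.24, SE 0.26, adjusted p = 0.00193). ZNF420, a KRAB protein that acts on p53, had 2.81, 5.95 and 5.02 CPM and 10.1, 8.36 and 10.3 CPM (1.05, SE 0.23, adjusted p = 0.00358). None of these groups overlapped, and the count of 7 fell to 1 without Ctrl insoluble replicate 1 and to 3 without Ctrl insoluble replicate 3 or RK-33 insoluble replicate 1.

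The RK-33 and NaAsO2 comparisons share the Ctrl insoluble libraries, so the values of the leading genes are given side by side and no overlap is drawn from them. Against Ctrl insoluble, ZNF699 had a log2 fold change of 1.27 with NaAsO2 and 0.74 with RK-33. ZNF426 had 1.22 and 0.79, ZNF264 1.14 and 0.56, and ZNF317 1.07 and 0.82. ZNF473 had 0.58 (SE 0.13, adjusted p = 0.00127) with NaAsO2 and 0.82 (SE 0.13, adjusted p = 0.000154) with RK-33, both below the fold limit, from 32.9, 33 and 36.9 CPM in Ctrl to 56.3, 59.7 and 37.1 CPM and 59.7, 61.2 and 60.7 CPM.

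Between the fractions of RK-33 cells, 12 members were called higher in the insoluble fraction and 6 lower, against 15.5% and 15.2% of all genes, and the median was 0.21 (all genes −0.01). ZNF347 had 19.6, 18.2 and 12.1 CPM in soluble and 45.5, 40.7 and 44.5 CPM in insoluble libraries (1.38, SE 0.23, adjusted p = 3.08e-05), and ZNF558 had 19.5, 18.3 and 15.1 CPM against 40.2, 37.7 and 35.0 CPM (1.09, SE 0.13, adjusted p = 4.02e-07). The 6 lower members were ZNF580, ZNF428, ZNF296, ZNF358, ZNF576 and ZNF581, of which ZNF581 was named after its values were seen. All of them lacked the KRAB pattern and had exon GC contents from 52.2% to 68.7%. ZNF428, which codes for a short protein, had 24.8, 26.6 and 30.9 CPM in soluble and 8.75, 6.37 and 10.9 CPM in insoluble libraries (−1.66, SE 0.27, adjusted p = 1.67e-05).

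All 6 lower calls between the fractions of RK-33 cells were outside the KRAB genes, and KRAB genes also have a lower GC content. Of 162 tested KRAB genes 11 were called higher and 0 lower with a median of 0.29, and of 31 without the pattern 1 was higher and 6 lower with a median of −0.13. The set has 34 genes with exon GC of 50% or more, and 24 of them have no KRAB pattern, so the properties overlap in part. All 6 lower calls were among the 22 tested genes with high GC and no KRAB pattern, whose median was −0.37. Of all 7345 genes with exon GC of 50% or more, 862 were called higher and 1381 lower, beside 1 and 6 of the 32 members there. In that range the share of members called lower was thus near that of all genes. Under 50% the counts were 1881 and 1301 of 10321 genes, beside 11 and 0 of 161 members. The 10 tested KRAB genes with high GC had no call and a median of 0.18, and the 9 genes with neither property had no call and a median of 0.21. By fingers, the medians with RK-33 were −0.13 in 49 genes with 1 to 9 fingers, 0.29 in 80 with 10 to 14 and 0.44 in 64 with 15 or more. Across the 193 genes the number of fingers and the RK-33 log2 fold change gave a Pearson r of 0.43 and a Spearman rho of 0.38, a description across genes measured in the same libraries, which also vary together in GC content and length.

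Fold changes of insoluble libraries against Ctrl differed with GC content over all genes, and the medians of the members were above those of all genes on both sides of 50% GC. In the insoluble fraction, NaAsO2 against Ctrl, the median over all 10321 genes with exon GC under 50% was −0.24 and 35.5% of them lay above 0. Over the 161 members in that range it was 0.37, with 79.5% above 0. Above that limit the median was 0.30 over 7345 genes and 0.63 over 32 members. With RK-33 against Ctrl the medians under 50% were −0.04 over all genes and 0.37 over the members. With the trend of each library with GC content removed, the NaAsO2 count was 42 in place of 27. No count of all genes under that setting stands beside it, so the change cannot be read as particular to the members. The part of GC content in these calls was not tested.

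**Figure D4:**
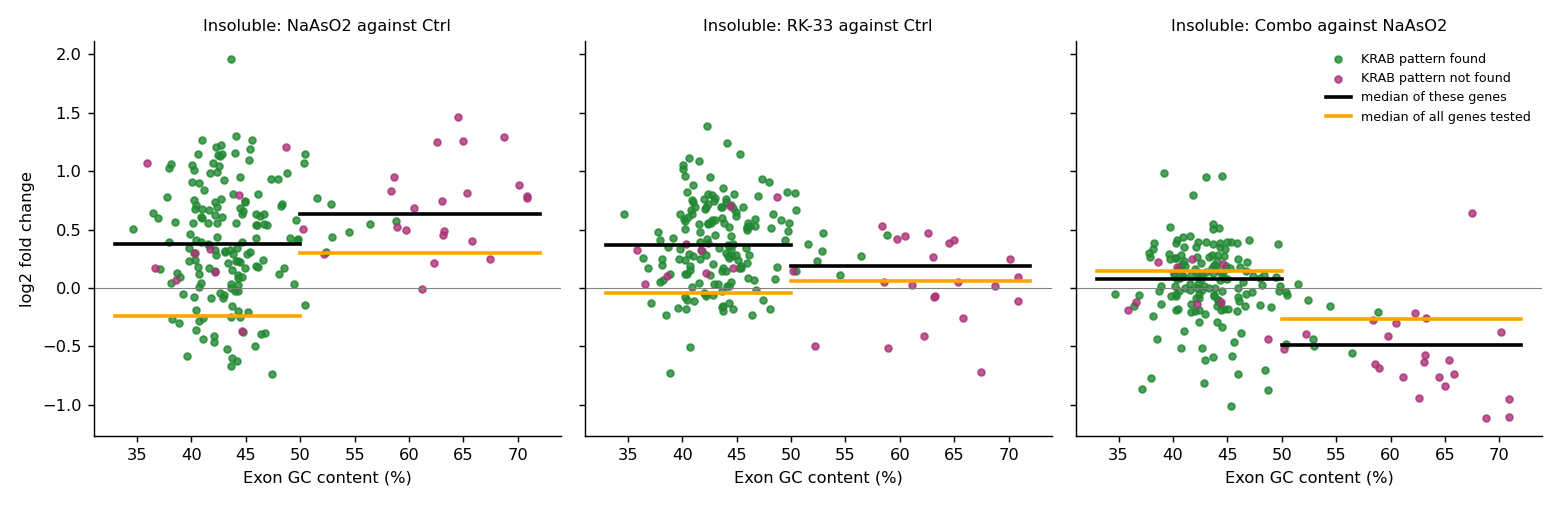
Log2 fold change in the insoluble fraction against exon GC content (%) for the tested members, for NaAsO2 against Ctrl, RK-33 against Ctrl and Combo against NaAsO2. Points are genes, coloured by whether the KRAB pattern was found, and lines give medians below and above 50% GC for the members (black) and all genes tested (orange). Under 50% GC the black line is above the orange one in the first 2 panels (0.37 against −0.24 and −0.04), and in the third the members with higher GC have a median of −0.49.

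When RK-33 preceded arsenite, few members were again called lower in the insoluble fraction. In the fraction comparison of Combo cells 22 members were called higher in the insoluble fraction and 4 lower. The shares of all genes were 10% and 13.1%, so the share called higher was near that of all genes and the share called lower was smaller. The median was 0.24 (all genes 0.00). Of these 22 genes 17 were among the 31 called higher with NaAsO2, a comparison that uses other libraries. That is 77.3% of the Combo calls and 54.8% of the NaAsO2 calls, and over all genes the shares were 76.8% and 52.5%. ZNF699 had 17.3, 19.999 and 18.1 CPM in soluble and 48.2, 54.5 and 47.3 CPM in insoluble libraries (1.44, SE 0.13, adjusted p = 6.36e-09). ZNF805 had 28.7, 28.8 and 29.5 CPM against 69.4, 73.0 and 75.7 CPM (1.33, SE 0.11, adjusted p = 2.25e-09), and ZNF460 had 82.2, 82.0 and 95.1 CPM against 219, 204 and 203 CPM (1.27, SE 0.12, adjusted p = 7.86e-09). The lower members were ZNF580, ZNF296, ZNF428 and ZNF358, all of which were also lower with RK-33 alone.

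Combo against NaAsO2, the comparison that asks what RK-33 changes under stress, gave few calls. In the insoluble fraction 0 members were called higher and 3 lower, against 3.11% and 0.815% of all genes, with a median of 0.00 (all genes 0.01), or −0.12 without NaAsO2 insoluble replicate 3. They were ZNF865 (−1.11, SE 0.23, adjusted p = 0.00343), ZNF358 (−1.11, SE 0.31, adjusted p = 0.0223) and ZNF101 (−1.01, SE 0.31, adjusted p = 0.0365). ZNF865 had 44.9, 50.4 and 110 CPM with NaAsO2 and 27.4, 28.8 and 38.6 CPM with Combo. ZNF358 had 19.3, 18.9 and 54.0 CPM against 12, 12.3 and 17.7 CPM, and ZNF101 had 6.76, 5.12 and 20.04 CPM against 5.33, 4.54 and 5.51 CPM. In each of the 3 genes the highest value was that of NaAsO2 insoluble replicate 3, and without it none was called and ZNF865 alone kept an adjusted p under 0.05 (−0.64, adjusted p = 0.00247). The count was 13 without NaAsO2 insoluble replicate 1, 10 without replicate 2, 1 without Combo insoluble replicate 1 or 2 and 7 without Combo insoluble replicate 3.

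With the replicate number as a block the count was 2, as ZNF101 was no longer called. Same-numbered insoluble libraries of NaAsO2 and Combo deviated together, with correlations of 0.46, 0.38 and 0.67. Of the 32 members with exon GC of 50% or more, 2 were above 0 in this comparison and their median was −0.49, against −0.27 over all such genes. The shift of the fraction ratio, Combo against NaAsO2, called 0 members by edgeR's quasi-likelihood test, where 0.034% of all genes were called higher and 0.108% lower. At an unadjusted p under 0.05 there were 12 members in it, and DESeq2 called 1. No share of all genes stands beside these counts, so they show nothing particular to the members.

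In the soluble fraction few members were called. NaAsO2 against Ctrl called 1 member higher, ZNF555, from 2.98, 1.75 and 1.71 CPM to 5.19, 4.79 and 3.40 CPM (1.04, SE 0.27, adjusted p = 0.0136), where 0.492% of all genes were called higher and 1.18% lower, and the median over members was 0.01 (all genes 0.03). RK-33 against Ctrl called 0 members by edgeR's quasi-likelihood test, against 0.283% of all genes higher and 0.232% lower. At an unadjusted p under 0.05 there were 13 members, without a share of all genes beside them, so that count shows nothing particular to the members. Combo against NaAsO2 called 2 higher and 0 lower, against 2.41% and 0.0283% of all genes. They were ZNF296, from 1.81, 2.29 and 3.86 CPM to 5.53, 6.14 and 7.19 CPM (1.22, SE 0.27, adjusted p = 0.00674), and ZNF878, from 0.339, 0.299 and 0.643 CPM to 1.48, 2.05 and 2.09 CPM (2.07, SE 0.57, adjusted p = 0.0314). The call of ZNF555 was lost without Ctrl soluble replicate 3 or NaAsO2 soluble replicate 1 or 2, and the count of 2 went to 0 without NaAsO2 soluble replicate 1 and to 1 without NaAsO2 soluble replicate 2 or 3 or Combo soluble replicate 2 or 3.

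Repressors with known targets were mostly not called between treatments. ZNF274 had 20.5, 24.2 and 23.9 CPM in Ctrl and 34.7, 33.2 and 45.3 CPM in NaAsO2 insoluble libraries, with no overlap, and its log2 fold change of 0.72 (SE 0.12, adjusted p = 7.77e-05) was below the fold limit. ZNF808 had 23.2, 21.1 and 25.7 CPM and 32.2, 31.7 and 20.8 CPM in the same groups, which overlapped (0.28, SE 0.16, adjusted p = 0.16). ZNF417 and ZNF587, a closely related pair, had log2 fold changes of 0.22 (adjusted p = 0.35) and 0.31 (adjusted p = 0.285) there, and ZNF91 had 0.04 (adjusted p = 0.913). ZNF649 (0.62, adjusted p = 0.104), ZNF224 (−0.44, adjusted p = 0.0898) and ZNF331 (0.03, adjusted p = 0.88) were not called either. ZNF536 was called in the fraction comparison of NaAsO2, with 2.26, 1.60 and 3.03 CPM in soluble and 7.26, 6.39 and 7.35 CPM in insoluble libraries (1.59, SE 0.22, adjusted p = 1.82e-06). Between the Ctrl fractions its log2 fold change was 0.78 and not called. Neither its shift, NaAsO2 against Ctrl (0.82), nor its change in the insoluble fraction (0.50) was called.

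Intron reads can come from unspliced or partly spliced RNA, from excised introns and, as strand was not used in counting, from antisense RNA. Introns held 23.3% ± 1.93 (SD, n = 3) of the members' exon plus intron counts in Ctrl soluble and 29.8% ± 2.41 in Ctrl insoluble libraries. In the NaAsO2 insoluble libraries the share was 14.9%, 12% and 20.2%. It was 22.8% ± 1.51 in the RK-33 insoluble libraries and 15.5% ± 0.30 in the Combo ones. All of these treated libraries lay below every Ctrl insoluble library, where the lowest was 27.8%. In the soluble fraction the members' mean share was 17.5% with NaAsO2, 19.2% with RK-33 and 18.9% with Combo. The highest RK-33 soluble library (21.6%) lay above the lowest Ctrl soluble one (21.2%). Over all genes the mean share was 33.4% in Ctrl insoluble, 21.4% in NaAsO2 insoluble, 35.8% in RK-33 insoluble and 27.5% in Combo insoluble libraries. With RK-33 the insoluble mean was thus lower than in Ctrl for the members and higher for all genes. The soluble mean over all genes was 20.6% in Ctrl, 15.8% with NaAsO2 and 17.9% with RK-33, and with Combo it was above that of Ctrl. The members' share was below that of all genes in each of the 12 insoluble libraries. The summed nuclear RNAs had a median of 10855 CPM in soluble and 6634 CPM in insoluble libraries, and their part in the intron levels was not tested.

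Relative to the introns of all genes, the intron level of most members was lower in the insoluble than the soluble fraction under every treatment. Intron levels are scaled to intron counts alone, which made up 20.6% of exon plus intron counts in Ctrl soluble and 33.4% in Ctrl insoluble libraries. A lower value is thus a smaller share of intron counts and need not mean less intron RNA of a gene in the pellet. In Ctrl 1 member was called higher and 16 lower of 152 tested, against 6.58% and 12.3% of all 17406 genes, with a median of −0.42 (all genes −0.11). With NaAsO2 there were 3 higher and 13 lower (5.18% and 5.92% of all genes), and the median was −0.22 (all genes 0.05), or −0.40 without NaAsO2 insoluble replicate 3. With RK-33 there were 1 and 27 (10.7% and 15.2%) with a median of −0.50 (all genes −0.09), and with Combo 0 and 9 (4.11% and 8.61%) with a median of −0.34 (all genes −0.03). With library size alone in place of TMM these counts of called members were 39, 26, 60 and 26, and the median of all genes moved by more than 0.1, to −0.45, −0.22, −0.55 and −0.29 in the same order.

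ZNF230, ZNF473, ZNF574 and ZNF675 were called lower in introns under all 4 treatments, and ZNF230 was named after its values were seen. The introns of ZNF675, an inhibitor of TRAF6 signalling, had 67.8, 59.9 and 65.8 CPM in Ctrl soluble and 28.6, 30.3 and 26 CPM in Ctrl insoluble libraries. The log2 fold changes were negative throughout (−1.19, −1.32, −1.49 and −1.47 in Ctrl, NaAsO2, RK-33 and Combo, adjusted p from 8.07e-08 to 6.85e-06). Introns of ZNF574 went from 19.3, 23.4 and 22.8 CPM to 2.38, 4.05 and 1.83 CPM in Ctrl (−2.97, SE 0.38, adjusted p = 1.33e-06), while the log2 fold change of its exons was 0.00 (SE 0.11, adjusted p = 0.99). ZNF665 introns went from 22, 17.1 and 23.5 CPM to 4.76, 5.39 and 5.48 CPM (−2.00, SE 0.25, adjusted p = 9.34e-07). ZNF473 introns, at 45.8, 40.1 and 40.9 CPM in Ctrl soluble and 17.1, 23.1 and 15.5 CPM in Ctrl insoluble libraries, had log2 fold changes from −1.14 to −1.44 over the treatments.

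ZNF536 was the member whose introns were called higher in the pellet in Ctrl and with RK-33. The gene spans chr19:30228290-30713538, and its introns had 75.9, 77.3 and 79.2 CPM in Ctrl soluble and 143, 156 and 173 CPM in Ctrl insoluble libraries (1.02, SE 0.13, adjusted p = 2.05e-06). With RK-33 the values were 82, 65.9 and 64 CPM and 163, 181 and 152 CPM (1.22, SE 0.13, adjusted p = 4.45e-08). With library size alone the values were 0.67 and 0.76, both below the fold limit.

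Between treatments, intron changes went both ways. In the insoluble fraction NaAsO2 against Ctrl gave 9 members higher and 13 lower (all genes 10.1% and 3.83%), with a median of −0.05. Without NaAsO2 insoluble replicate 3 there were 6 higher and 11 lower, with a median of −0.19. ZNF121 introns fell from 32.5, 26.1 and 26.7 CPM to 10.9, 12.1 and 15.5 CPM (−1.16, SE 0.20, adjusted p = 0.000112), and ZNF235 introns rose from 24.2, 29.4 and 24.4 CPM to 52.0, 52.7 and 62.9 CPM (1.10, SE 0.17, adjusted p = 4.65e-05). In the soluble fraction 0 were higher and 2 lower (0.925% and 1.59% of all genes), ZNF492 and ZNF726. Combo against NaAsO2 called 3 higher and 9 lower in the insoluble fraction (6.34% and 3.94%, 11 in all with the replicate block, where ZNF57 was lost) and 1 higher and 4 lower in the soluble fraction (5.37% and 0.896%).

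In ZNF264 introns were called lower with Combo than with NaAsO2 in both fractions, and exons were not. Its introns had 22.4, 25.3 and 20.8 CPM in NaAsO2 soluble and 7.41, 7.12 and 9.28 CPM in Combo soluble libraries (−1.51, SE 0.24, adjusted p = 3.74e-05). In the insoluble fraction they had 16.7, 14.2 and 12.6 CPM and 4.04, 7.44 and 9.94 CPM (−1.05, SE 0.24, adjusted p = 0.00166). The exon log2 fold changes of ZNF264 were 0.01 (adjusted p = 0.958) in the soluble and −0.29 (adjusted p = 0.075) in the insoluble fraction.

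Exons and introns of the same genes were set beside each other in the 146 members tested in both tables. In Ctrl the exon log2 ratio of insoluble to soluble was above the intron one in 78.1% of members, against 57.2% of the 13116 genes in both tables. The shares were 76.7% with NaAsO2 (all genes 49.7%), 84.9% with RK-33 (55.2%) and 78.1% with Combo (55.1%). With RK-33, 78 members had a positive exon and a negative intron value and 6 the reverse. Exon and intron tables were scaled separately, so a difference between them is relative to the other genes of each table. The plot of exon against intron ratios shows most genes below the diagonal.

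**Figure D5:**
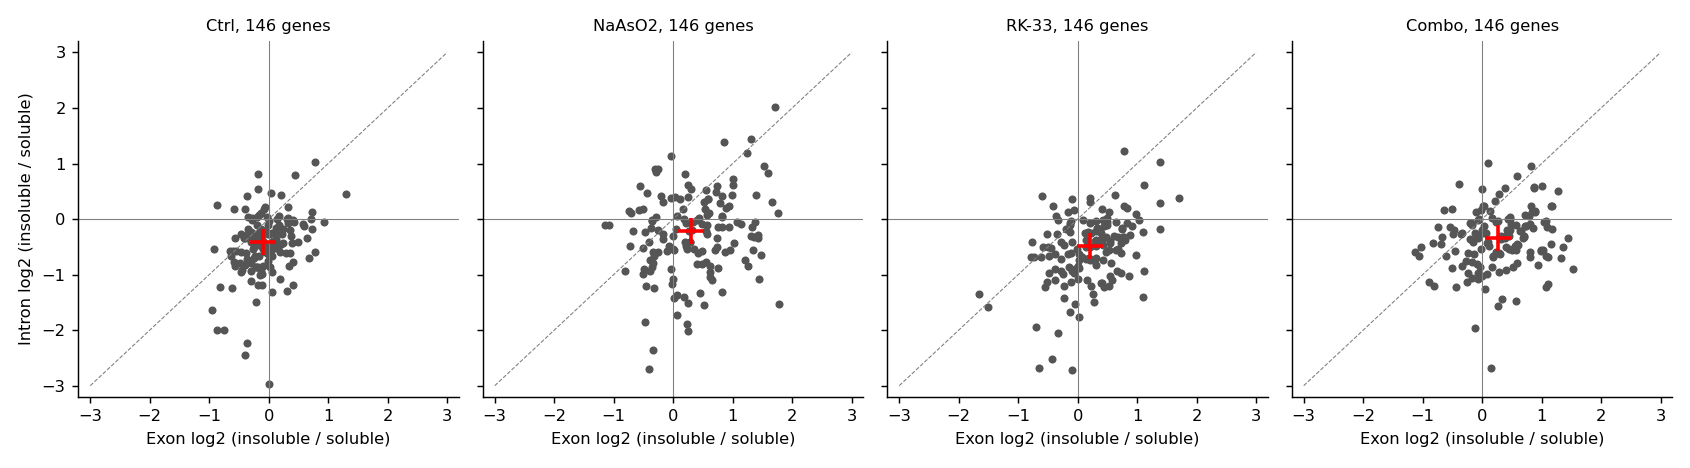
Log2 ratio of insoluble to soluble for exons (x axis) and introns (y axis) of the 146 members tested in both tables, in 4 treatments. Points are genes, the red cross marks both medians, and the dashed diagonal marks equal ratios. Most points lie below the diagonal in each panel, with 84.9% of genes there in RK-33.

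A circular RNA of 1 member was listed among the 394 circular RNAs with counts. It joined chr19:23358430-23362725 on the minus strand, inside ZNF91, exon to exon, and contains the ZNF91 linker shown above. It had 27 back-splice counts in 12 of the 24 libraries. Summed over 3 libraries there were 0 in Ctrl soluble and 8 in Ctrl insoluble, 3 and 4 with NaAsO2, 0 and 6 with RK-33 and 3 and 3 with Combo, too few to compare. Linear reads at the same junctions were 10 and 25, 12 and 27, 11 and 21, and 11 and 27 in the same order.

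TRIM28 and genes of other silencing factors, here called corepressor genes, were measured for comparison. Of 19 corepressor genes 3 were called higher and 2 lower in the insoluble fraction of Ctrl cells, 5 and 4 with NaAsO2, 3 and 2 with RK-33 and 4 and 2 with Combo, and none was called between treatments within a fraction. The shares in Ctrl were 15.8% higher and 10.5% lower, beside 11.8% and 10.7% of all genes, and those with RK-33 were also 15.8% and 10.5%, beside 15.5% and 15.2%. With NaAsO2 they were 26.3% and 21.1% beside 14.6% and 16%, and with Combo 21.1% and 10.5% beside 10% and 13.1%. CHD4 (1.63, 1.82, 1.53 and 1.36 in Ctrl, NaAsO2, RK-33 and Combo) and SMARCAD1 (1.29, 1.00, 1.21 and 1.07) were called higher in the insoluble fraction throughout. The HP1 genes CBX1 and CBX3 were lower throughout. CBX5, the other HP1 gene, was not called, with log2 fold changes of 0.05, 0.45, 0.53 and 0.50 in the same order. TRIM28 itself, the direct partner of the KRAB domain, was called higher with NaAsO2 (1.24, SE 0.25, adjusted p = 0.000182). Its log2 fold changes in Ctrl, RK-33 and Combo were 0.76, 0.35 and 0.45, none of them called. The shift of its fraction ratio, NaAsO2 against Ctrl, was 0.48 (SE 0.35, adjusted p = 0.334). In the shift of the fraction ratio, NaAsO2 against Ctrl, HDAC2 alone of these genes was called, and it was lower (−1.09, SE 0.27, edgeR adjusted p = 0.00602).

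Zinc finger genes on other chromosomes were measured in the same fits. Their mean summed insoluble level was 8062 CPM in Ctrl, 10875 with NaAsO2, 9890 with RK-33 and 10462 with Combo. Of 220 tested, 48 were called higher in the insoluble fraction with NaAsO2 and 8 lower (all genes 14.6% and 16%). The median was 0.37 against 0.29 for chromosome 19. In the insoluble fraction, NaAsO2 against Ctrl, 22 were higher and 1 lower (all genes 5.61% and 8.37%) with a median of 0.40 against 0.43. The shift called 31 higher and 1 lower (all genes 4.57% and 4.99%) with a median of 0.43 against 0.42. Between the NaAsO2 fractions and in the shift, the share of these genes called higher was above that of the members. For RK-33 against Ctrl in the insoluble fraction 1 of 220 was called, with a median of 0.26, and 7 of 193 on chromosome 19, with a median of 0.34. Of all genes 0.702% were called higher and 1.16% lower there. No difference between these sets was tested.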

How the data were processed

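Counts of 24 libraries were used as the authors deposited them. Per the labels and file headers, total RNA was made into directional libraries, aligned to GRCh38.p13 with STAR 2.7.2b, converted with SAMtools 1.2 and counted by featureCounts 1.5.3 on GENCODE release 40 genes by name, for exons and, separately, for introns (at least 25 overlapping bases). The headers show paired counting without strand and without multi-mapping reads or reads over several genes, which lowers counts of near-identical and overlapping members, and 140 of the 241 members overlap another gene in exons. Antisense partners cannot be told apart. Deposited circular RNA counts came from back-splice reads. Genes under a mean of 1 CPM were left out, libraries were scaled by TMM, and 1 edgeR 4.0.16 quasi-likelihood fit (R 4.3.3) of 8 groups gave each contrast. Calls needed a Benjamini-Hochberg adjusted p under 0.05 over all genes and a log2 fold change of 1 or more in either direction. The study's own test, glmLRT, and DESeq2 1.42.0 were alternatives. CPM printed here are TMM-normalised. Scripts were tested on simulated data.

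Named genes were 12 members with known roles, up to 4 per direction with the smallest adjusted p in each exon comparison (3 for introns), the 10 highest per kilobase, and hosts of listed circular RNAs. The members and lists were chosen with earlier results of these data known. KRAB patterns, fingers and linkers were found in coding sequences of GENCODE release 44 on the same build. Fractions share a lysate according to the methods, but their deviations correlated at −0.29 to 0.11 under equal numbers, so the block was an alternative. The labels do not say whether replicates were separate cultures, and p-values measure the spread between these samples.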

Additional observations from a re-analysis of the deposited data

Results flagged for a closer look

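The ratio of insoluble to soluble exon level differed between NaAsO2 and Ctrl, by the edgeR quasi-likelihood test of the interaction, in 18 members, all toward the insoluble fraction with NaAsO2. Over all genes 4.57% were called higher and 4.99% lower. The share called higher was larger among the zinc finger genes of other chromosomes than among the members. ZNF426 had the smallest adjusted p, with a difference of 1.53 on the log2 scale, and all 3 of its NaAsO2 insoluble libraries were above all 3 of its NaAsO2 soluble ones while the order was the opposite in Ctrl. ZNF699 differed by 1.59, ZNF264 by 1.30 and ZNF805 by 1.29. RN7SL1 took 5.79% of counts in NaAsO2 insoluble replicate 3 and without that library ZNF699 differed by 1.70, ZNF426 by 1.51 and both ZNF264 and ZNF805 by 1.23.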

How the results depend on the processing

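Of 344 alternative values of the 20 counts of called members, 260 lay within 1.5 times the count reported, and of 1247 alternatives for 81 named calls 1130 stayed past both thresholds, 117 lost the call and 0 reversed. Without the fold limit the exon counts were 40 in Ctrl, 93 with NaAsO2, 81 with RK-33 and 91 with Combo between fractions, 6 and 88 for NaAsO2 against Ctrl in the soluble and insoluble fraction, 11 for insoluble Combo against NaAsO2, 3 and 57 for RK-33 against Ctrl, and 33 for the NaAsO2 shift. The intron counts were then 37, 31, 51 and 25 between fractions, 5 and 43 for NaAsO2 against Ctrl, and 9 and 27 for Combo against NaAsO2. With no filter, exon counts were 9 between Ctrl fractions, 4 for soluble Combo against NaAsO2 and 2 for the Combo shift, and the RK-33 fractions gave 6 higher and 7 lower (8 and 7 at a mean of 0.25 CPM) in place of 12 and 6. With library size alone, exon counts were 0 for soluble NaAsO2, 4 and 1 for soluble and insoluble Combo against NaAsO2 and 28 for the NaAsO2 shift, and intron counts were 39, 26, 60 and 26 between fractions and 8 for soluble Combo against NaAsO2. The median of all exon values for soluble NaAsO2 against Ctrl was then −0.15, and summed levels were 2784 CPM in Ctrl soluble, 2451 in NaAsO2 soluble, 3405 in NaAsO2 insoluble and 3460 in RK-33 insoluble libraries. Fitting only the groups compared gave 0 and 16 exon calls for soluble and insoluble NaAsO2 and 4 and 0 for soluble and insoluble Combo against NaAsO2, with intron counts of 5 between NaAsO2 fractions, 6 for insoluble NaAsO2 and 1 for insoluble Combo against NaAsO2. With the GC trend removed there were 42 for insoluble NaAsO2, 1 for soluble RK-33 and 32 for the NaAsO2 shift. A mean of 0.25 CPM gave 1 for soluble RK-33, DESeq2 gave 1 for the Combo shift and 1 intron call for soluble NaAsO2, and glmLRT gave 15 intron calls between Combo fractions and 10 for soluble Combo against NaAsO2. The cause of these differences was not tested.

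With the replicate number as a block the exon counts were 5, 30, 19 and 27 between the fractions of Ctrl, NaAsO2, RK-33 and Combo, 28 for insoluble NaAsO2, 2 for insoluble Combo against NaAsO2 and 14 for the NaAsO2 shift, and with the GC trend removed as well 1 for soluble RK-33 and 29 for the shift. No count moved by over 1.5 times with the block alone.

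Leaving out 1 library at a time, exon counts ran from 5 to 7 (Ctrl), 32 to 42 (NaAsO2), 16 to 20 (RK-33) and 18 to 33 (Combo) between fractions. For NaAsO2 against Ctrl they ran from 0 to 1 (soluble) and 23 to 36 (insoluble), for Combo against NaAsO2 from 0 to 3 and 0 to 13, for RK-33 against Ctrl from 0 to 1 and 1 to 6, and for the shifts from 14 to 36 (NaAsO2) and 0 to 3 (Combo). Intron counts ran from 12 to 19, 11 to 20, 23 to 29 and 6 to 18 between fractions, 0 to 2 and 17 to 30 for NaAsO2 against Ctrl, and 2 to 9 and 8 to 21 for Combo against NaAsO2. The single exon call for soluble RK-33 appeared without Ctrl soluble replicate 1 or RK-33 soluble replicate 3. The Combo shift had 3 without NaAsO2 insoluble replicate 1 and 1 without NaAsO2 or Combo insoluble replicate 3. Intron counts were 18 between Combo fractions without Combo soluble replicate 3, and 21 for insoluble Combo against NaAsO2 without NaAsO2 insoluble replicate 1. For soluble NaAsO2 the intron count was 1 without Ctrl soluble replicate 1 and 0 without Ctrl or NaAsO2 soluble replicate 3. For soluble Combo against NaAsO2 it was 3 and 2 without NaAsO2 soluble replicates 1 and 3, and 9 and 2 without Combo soluble replicates 1 and 3. At a median of 9.43 CPM many members have few counts, and depth limits the size of change that can be called.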
